A study of Drosophila melanogaster with 5 samples.

Results

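Broad open regions of the whole Drosophila melanogaster embryo were taken as the peaks of the deposited whole-embryo list that were at least 1000 bp wide (end minus start). There were 265 of them among 10000 embryo peaks. They were compared with 10000 peaks from midline cells sorted out of embryos of the same age. Chromatin had been profiled by FAIRE-seq, in which crosslinked chromatin is sheared and phenol-extracted and the DNA that is not held by nucleosomes is sequenced.

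The embryo list came from 2 libraries of whole OregonR embryos aged 6 to 8 hours after egg laying, fixed for 10 minutes before they were homogenized. The midline list came from 2 libraries of GFP-positive cells of the strain sim3.7-Gal4 UAS-mCD8::GFP, also aged 6 to 8 hours, which were dissociated and sorted live and then fixed for 5 minutes. In that strain a sim driver switches on a membrane-bound GFP, so the cells are midline cells only as far as the driver marks them. Embryos of both groups were collected over 2 hours, and the chromatin of both was sonicated to a stated range of 500 bp to 2 kb. A further library of genomic DNA from adult virgin females (y;cn,bw,sp) served as input and has no values of its own here. Tissue, strain, cell sorting and fixation time all differ between the 2 FAIRE groups and cannot be told apart. The authors called the peaks on pooled replicates, so the lists hold no value per library, read depth is unknown and no spread between replicates can be given. Intervals below are exact Clopper-Pearson 95% intervals. They cover counting error over peaks only, and neighbouring peaks are not independent.

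Open chromatin in animal genomes marks promoters, enhancers and other sites where proteins that bind DNA displace nucleosomes. A peak caller reports a long region either where such a site is itself long or where several open sites lie so close that the signal between them does not fall to background. The midline of the fly nervous system is a small set of neurons and glia along the ventral side, specified by the transcription factor Single-minded, and a whole embryo contains these cells together with all others. In a whole-embryo list, a site open in few cells and a site slightly open in many cells therefore cannot be told apart. No gene is assigned to any region here, because the gene table supplied is on Release 6 of the genome and the peaks are on dm3. For the same reason no sequence is shown, and the sorted cells could not be checked against midline marker genes. Coordinates are dm3, counted from 1.

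The 265 regions were 2.65% of the embryo peaks and held 341 kb, which was 8.73% of the embryo peak sequence. Their widths ran from 1000 to 2896 bp with a median of 1175 bp and an interquartile range of 1076 to 1377 bp. The other 9735 embryo peaks had a median of 323 bp. The regions were chosen by their width, so this difference is a description. In all, 13 regions were wider than 2 kb, the upper end of the stated fragment range. Whether fragment length contributed to the widths was not tested. The threshold fell in a continuous distribution. The 3 narrowest regions were 1000 bp wide and had embryo ranks of 1126, 1360 and 5590, whereas the 3 peaks just outside were 997, 997 and 999 bp wide with ranks of 1201, 1873 and 2364. The 47 regions of 1000 to 1049 bp had a median authors' score of 478, against 492.5 for the 64 peaks of 950 to 999 bp. The score is a whole number of unstated scale given by the authors, and it is used here only to rank peaks within a list, with rank 1 the highest and tied peaks sharing the better rank.

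Nearly every broad embryo region held a midline peak, and a small majority held 2 or more. Of the 265 regions, 260 (98.1%, interval 95.7 to 99.4%) overlapped a midline peak by at least 1 bp, and 151 (57.0%, 50.8 to 63.0%) overlapped 2 or more. That majority was lost when only the 5000 highest-scoring midline peaks were used, where the share with 2 or more was 37.0%. Over all 10000 embryo peaks the background was 56.6% for 1 or more midline peaks and 4.24% for 2 or more. There were 109 regions with 1 midline peak, 118 with 2, 31 with 3, 1 with 4 and 1 with 5. The regions thus contained 33 of the 42 embryo peaks that overlapped 3 or more midline peaks (background 0.42%). Of the midline list, 60.9% overlapped any embryo peak. The broad regions touched 446 midline peaks, which is 4.46% of that list, in 447 pairs of a region and a midline peak.

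A wider peak meets an overlap rule more easily, so the counts were also set out by width. The share holding at least 1 midline peak was 97.2% (93.0 to 99.2%) at 1000 to 1199 bp, against 96.0% (93.3 to 97.9%) for embryo peaks of 800 to 999 bp and 90.7% (88.6 to 92.6%) at 600 to 799 bp. The intervals just above and just below the threshold overlapped, whereas that at 600 to 799 bp lay below both. The share holding 2 or more kept climbing with width. It was 42.7% (34.4 to 51.2%) of 143 regions at 1000 to 1199 bp, 65.3% (53.1 to 76.1%) of 72 regions at 1200 to 1499 bp and 86.0% (73.3 to 94.2%) of 50 regions at 1500 bp or more. Embryo peaks of 800 to 999 bp stood at 32.9% (27.8 to 38.3%). Regions with 3 or more midline peaks made up 4.20% of the narrowest of these bands and 40.0% (26.4 to 54.8%) of the widest.

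**Figure D1:**
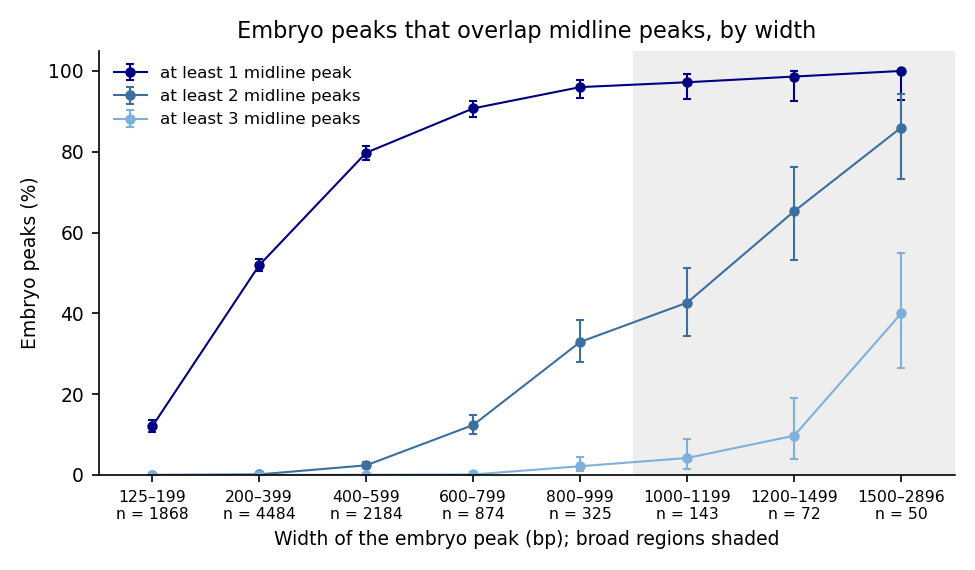
Share of embryo peaks (vertical axis, %) that overlap at least 1, 2 or 3 midline peaks, by the width of the embryo peak (horizontal axis, bp, with the number of peaks per band); bars are exact 95% intervals and the broad regions are shaded. The share with at least 1 midline peak is 96.0% at 800 to 999 bp and changes little above, whereas the share with at least 2 goes on to 86.0% at 1500 bp or more.

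Per unit of length, broad regions held fewer midline peaks than the embryo peaks of 200 to 999 bp and more than the narrowest peaks. They held 1.33, 1.32 and 1.26 midline peaks per kb in the 3 width bands, in order of width, against 1.47 per kb at 800 to 999 bp and 1.51 per kb at 600 to 799 bp. The number was 1.78 per kb at 200 to 399 bp and 0.72 per kb at 125 to 199 bp, where most peaks held none. Narrow peaks that hold a midline peak at all have a high number per kb by construction. Among regions with a single midline peak the median width was 1123 bp. It was 1230.5 bp with 2 midline peaks and 1676 bp with 3 or more. Across the 265 regions, width and the number of midline peaks had a Spearman correlation of 0.41, which partly follows from the extra room in wider regions.

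Midline peaks covered most of the broad sequence. They covered 240 kb of the 341 kb, or 70.3%, and the median region was covered over 72.5% of its width (interquartile range 58.1 to 86.1%). The other embryo peaks were covered over 49.8% of their sequence, but 4337 of those 9735 held no midline peak. Among peaks that held one, the pooled cover was 71.4% for broad regions, against 69.8% for embryo peaks of 600 to 999 bp and 73.2% for all other embryo peaks. Width and covered percent were nearly unrelated within the broad regions (Spearman correlation 0.03 over 265 regions). Of the 265 regions, 3 were covered in full, 45 over 90% or more but not in full, 73 over 75% to under 90% and 103 over 50% to under 75%. Another 36 (13.6%, 9.70 to 18.3%) were covered over less than 50%, and 5 not at all.

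Pooled cover differed little with the number of midline peaks, at 72.6% with 1, 70.9% with 2 and 70.1% with 3 or more. The medians differed more. Regions with a single midline peak had a median cover of 79.6% and the widest spread (interquartile range 54.5 to 91.8%). The medians were 71.1% with 2 midline peaks and 71.4% with 3 or more. All 3 fully covered regions held a single midline peak that reached past both edges. These were chr2R:18401462-18402689 under a midline peak of 1320 bp, chr3R:11897485-11898528 under one of 1134 bp, and chr2R:7906524-7907546 under one of 1061 bp. The next were chrX:19647521-19648528, covered over 99.7%, and chr2L:15491286-15492566, covered over 98.8%, each by 1 midline peak as well.

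At the low end, chr3R:16848902-16849930 was covered over 13.0% by a midline peak of 134 bp that ranked 9944, in the lowest rank of that list. The region itself ranked 8981, the lowest of all 265. At chrX:7218188-7219333 the region ranked far higher, at 861, yet its midline peak was 156 bp wide, ranked 8703 and lay at the very edge, leaving 981 bp uncovered on the other side. The remaining 3 of the 5 least covered regions were on 3R at chr3R:1057216-1058359 (24.7%) and chr3R:5166630-5167911 (26.4%) and on 3L at chr3L:15313611-15314777 (25.2%). Their embryo ranks were 2300, 1666 and 2333, in that order.

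The midline peaks lay inside the broad regions and stopped short of their edges. Of the 447 pairs, 352 (78.7%, 74.7 to 82.5%) had the midline peak wholly inside the region, 92 had it past a single edge and 3 past both. Uncovered sequence at the edges amounted to 62.8 kb, or 65.4% of all uncovered sequence in regions that held a midline peak. The uncovered stretch at an edge had a median of 64 bp (interquartile range 12.75 to 147 bp), and its median was 58.5 bp at the lower coordinate and 70.5 bp at the higher. The midline peak reached or passed the edge at 102 of 520 edges. The other 33.3 kb lay in 187 gaps between neighbouring midline peaks of the same region. These gaps ran from 43 to 811 bp with a median of 148 bp, and 121 of them (64.7%, 57.4 to 71.5%) were under 200 bp. The stated fragment range starts at 500 bp, and 164 of the 187 gaps were under 300 bp. Whether midline peaks this close are separate open sites was not tested.

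**Figure D2:**
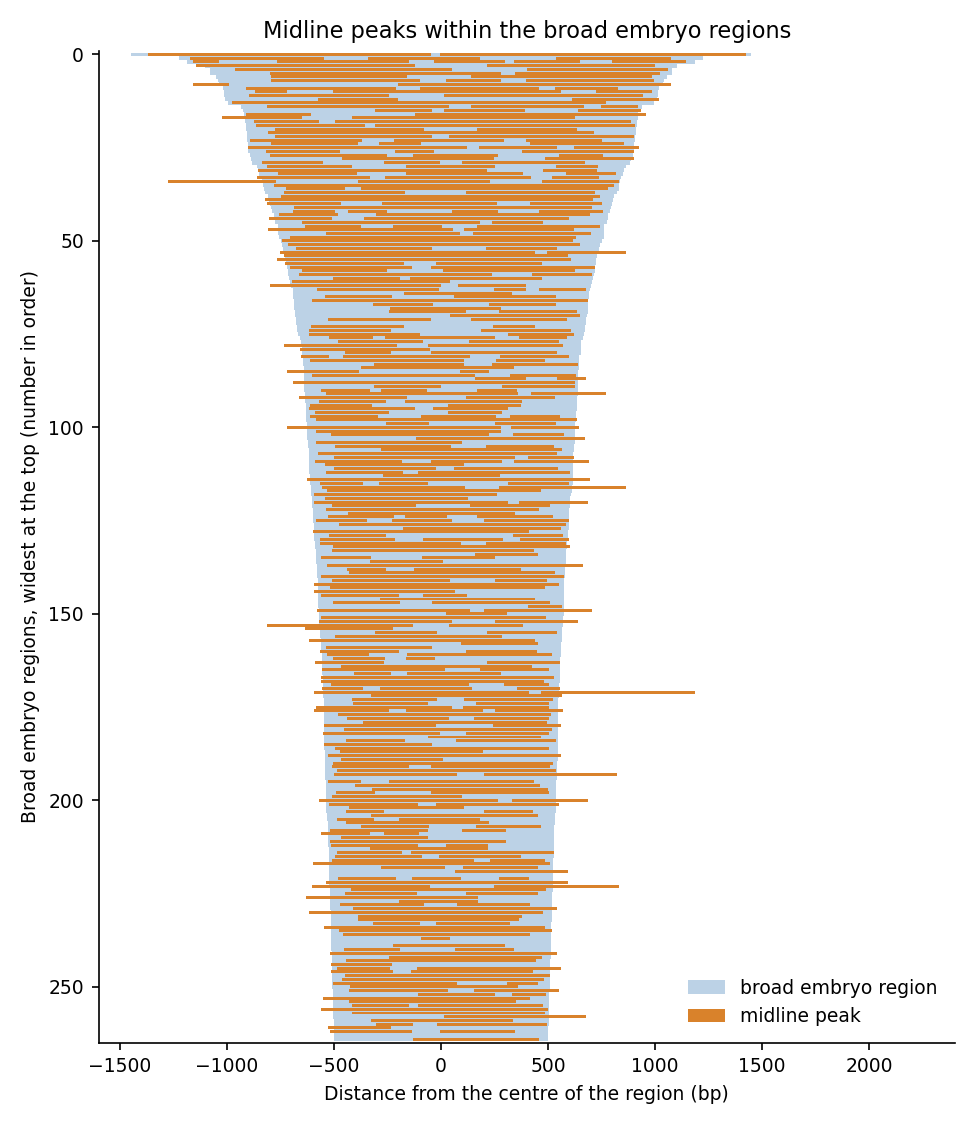
Each of the 265 broad embryo regions (light blue, widest at the top, vertical axis) with the midline peaks that overlap it (orange), drawn to scale as distance from the centre of the region in bp (horizontal axis). Midline peaks fill 70.3% of the broad sequence and most of them end within the region. Gaps between midline peaks of the same region have a median of 148 bp over regions of all widths.

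Measured base by base, cover by midline peaks changed steeply at the edges of broad regions. At 100 bp outside an edge, 4.35% (2.78 to 6.45%) of 529 edges lay in a midline peak, the lowest value within 500 bp of the edge. At the edge itself the share was 19.2% (16.0 to 22.9%), at 100 bp inside 61.9% (57.6 to 66.0%) and at 200 bp inside 77.0% (73.2 to 80.5%). The edges of embryo peaks of 600 to 999 bp gave nearly the same course, with 4.00% at 100 bp outside, 17.1% at the edge and 75.2% at 200 bp inside. Within the broad regions the cover was roughly level. The central base was in a midline peak in 72.1% (66.3 to 77.4%) of regions, the base 300 bp towards the lower coordinate in 79.6% (74.3 to 84.3%) and the base 300 bp towards the higher coordinate in 72.1%. At 250 bp from the centre the share was 81.1% towards the lower coordinate and 77.0% towards the higher. All these bases are of the same regions, so their separate intervals cannot decide whether cover dips at the centre. A dip was not tested.

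**Figure D3:**
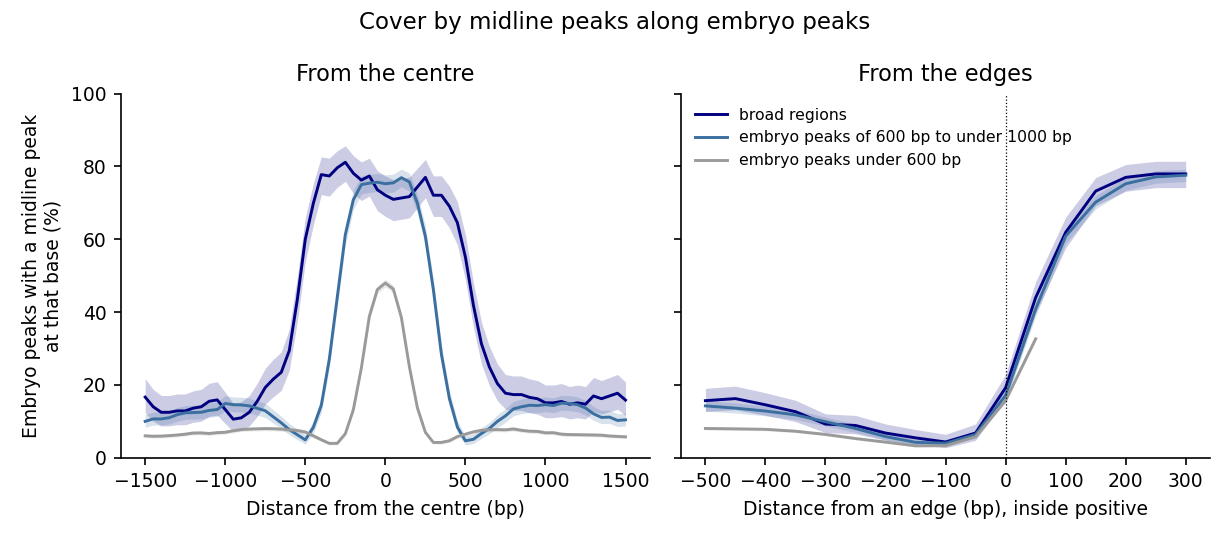
Share of embryo peaks (vertical axis, %) in which the base at a given distance from the centre (left, bp) or from an edge (right, bp, positive inside, both edges pooled) lies in a midline peak; shading is the exact 95% interval. In broad regions the share is 72.1% at the centre, 19.2% at the edge and 4.35% at 100 bp outside, and the course at the edges is close to that of embryo peaks of 600 to 999 bp.

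Where in a region the midline peaks lay depended on how many there were. In regions with a single midline peak, 97 of 109 midpoints (89.0%, 81.6 to 94.2%) fell in the central 50% of the width. Embryo peaks of 600 to 999 bp with a single midline peak gave 92.9% (91.0 to 94.5%) of 887 midpoints, an overlapping interval. Over all midline peaks, whatever their number, the figure was 56.4% (51.7 to 61.1%) of 443 midpoints in broad regions, against 76.0% (73.5 to 78.3%) of 1306 in embryo peaks of 600 to 999 bp. In regions with 2 midline peaks the midpoints avoided the centre. Divided into 5 equal parts along the width, these regions had 37, 73, 16, 69 and 38 midpoints, and in 113 of 118 regions (95.8%, 90.4 to 98.6%) the midpoints lay on opposite sides of the centre. The first midpoint was at a median of 0.24 of the width and the second at 0.76, and they were a median of 624.5 bp apart. With 3 or more midline peaks the 5 parts held 25, 12, 25, 10 and 29 midpoints. Non-overlapping peaks that share a region must lie apart, so part of this spacing is fixed by the number. No strand is known, and 228 of 443 midpoints (51.5%, 46.7 to 56.2%) lay on the side of the lower coordinate.

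The midline peaks that share a region were unequal. In regions with 2 of them, the better-ranked had a median midline rank of 880.5 and a median width of 530 bp, and the other a median rank of 3954.5 and a median width of 333.5 bp. The better-ranked peak was the wider in 85 of 117 regions with untied ranks (72.6%, 63.6 to 80.5%) and nearer the centre in 69 (59.0%, 49.5 to 68.0%). That second interval includes equal shares. The other peak ranked beyond 5000 in 49 of 118 regions (41.5%, 32.5 to 51.0%), and in 17 regions both ranked 1000 or better. The count of midline peaks per region therefore rests in part on low-ranked calls.

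The regions with the most midline peaks show this range. The region chr3L:724960-727330, 2371 bp wide with embryo rank 1688, held 5. They were 125, 616, 331, 307 and 346 bp wide along the region, with midline ranks of 9271, 2291, 4338, 1859 and 4543, and covered 72.8% of it. Its highest midline peak was thus in the fourth place and no peak was among the first 1000 of the midline list. The region chr2R:13307468-13309048 held 4 midline peaks of 194, 183, 214 and 300 bp with ranks of 3353, 5215, 6440 and 3640, which covered 56.4% of it. Next by width among regions with 3 were chr2R:11018026-11020471 (midline ranks 1064, 4086 and 1252), chr2L:2181495-2183579 (845, 7594 and 3943) and chr3L:16400869-16402907 (1336, 3435 and 6173). In these 3 regions the first midline peak along the coordinates ranked best.

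The widest region of all stood apart from that pattern. At chr2L:12009864-12012759 the embryo region was 2896 bp wide and ranked 21, and it held 2 midline peaks that were both broad, 1319 and 1426 bp wide, with midline ranks of 6 and 11. They were 46 bp apart and covered 94.8% of the region. A second broad region, chr2L:12006389-12007946, lay just before it with embryo rank 29 and a best midline rank of 51. The other regions among the 5 widest were chr2R:11018026-11020471 and chr3L:724960-727330, described above, chr2R:8844686-8846892 (embryo rank 292, best midline rank 180) and chr3R:11243369-11245525 (embryo rank 8, best midline rank 188).

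Broad midline peaks were mostly found in broad embryo regions. The midline list held 62 peaks of 1000 bp or more, and 55 of them (88.7%, 78.1 to 95.3%) touched a broad embryo region, 6 touched only narrower embryo peaks and 1 touched none. Seen from the embryo list, 54 of the 265 regions (20.4%, 15.7 to 25.7%) held a broad midline peak, against a background of 0.64% of all embryo peaks. A midline peak of this width cannot lie wholly inside an embryo peak under 1000 bp, so the contrast is partly set by the width rule. The midline peaks in broad regions had a median width of 468.5 bp and a median rank of 1804. The midline peaks found only in other embryo peaks had medians of 306 bp and rank 3501, and those in no embryo peak 221 bp and rank 7019.

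Broad regions ranked high in the embryo list, which is a description, since the width and the score come from the same peak calls. Their median embryo rank was 817 (interquartile range 311 to 1601), and 262 of 265 ranked 5000 or better. They made up 153 of the 1002 embryo peaks ranked 1000 or better (15.3%, 13.1 to 17.6%), and 23 of the first 100 (23.0%, 15.2 to 32.5%). The highest-scoring embryo peak was a broad region, chr3R:7197470-7198968, with a score of 1645. It held 1 midline peak of 1357 bp that ranked 84 and covered 90.5% of it. The second-ranked embryo peak was also broad, chr2R:11622438-11623684, with a score of 1637, but its midline peak was 679 bp wide, ranked 1047 and left 528 bp at the higher coordinate uncovered. The next broad regions by rank were chr3R:11243369-11245525, chr2L:12009864-12012759 and chr2L:12006389-12007946, at embryo ranks 8, 21 and 29.

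In the midline list, which took no part in choosing the regions, the best peak held by each region also ranked high. Its median rank was 1015 (interquartile range 344 to 1982) over 260 regions, against 3353 over the 5398 other embryo peaks that held a midline peak. Broad regions held 150 of the 1000 midline peaks ranked 1000 or better (interval 12.8 to 17.4%) and 361 of the 5056 ranked 5000 or better (7.14%), against the 4.46% of the whole list. Embryo rank and best midline rank had a Spearman correlation of 0.61 over the 260 regions and of 0.57 over the other 5398 peaks. The points are peaks of the same 2 lists and are not replicates. Rank 1000 or better was reached in both lists by 101 regions (38.1%, 32.2 to 44.3%), in the embryo list only by 52, counting 1 region that held no midline peak, and in the midline list only by 28. The best midline rank was the better number in 109 of 260 regions and the worse in 151 (58.1%, 51.8 to 64.1%). At chr3R:12060711-12061803, for example, the embryo rank was 183 and the midline rank 2. Choosing regions by embryo width favours the embryo rank, and taking the best of several midline peaks favours the midline rank. The split of 109 to 151 is therefore a description only.

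**Figure D4:**
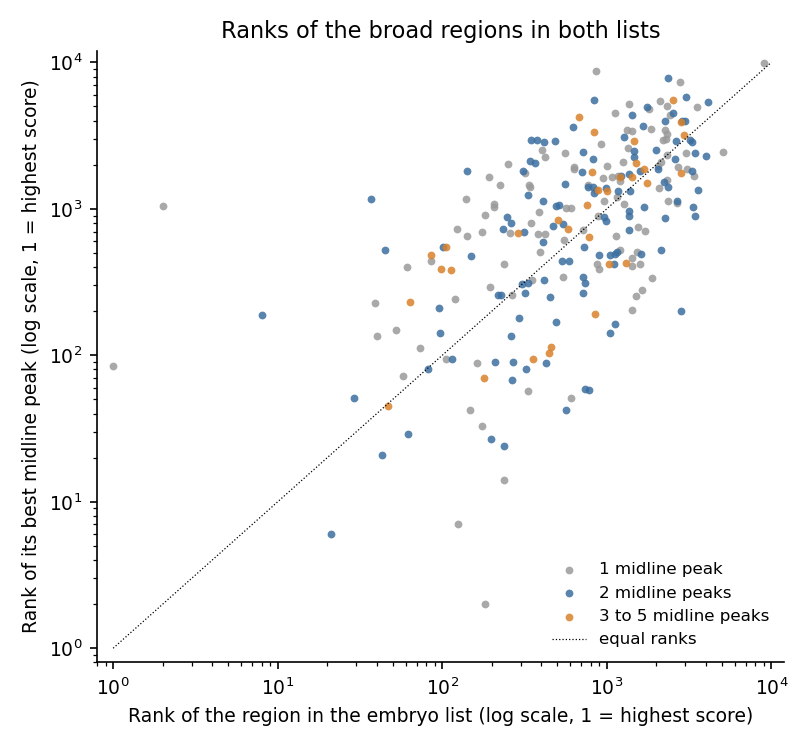
Rank of each broad region in the embryo list (horizontal axis, log scale) against the rank of its best midline peak (vertical axis, log scale) for the 260 regions that hold one; colours give the number of midline peaks and the dotted line marks equal ranks. The ranks rise together (Spearman correlation 0.61), and 151 of the 260 regions lie above the line, where the midline rank is the worse. The regions were chosen by embryo width, so their place about the line is a description.

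Since broad regions are also high-scoring, they were set beside other embryo peaks within the same bands of embryo rank. The share with a midline peak was then close at the top of the list. At ranks 1 to 200 it was 45 of 45 broad regions and 154 of 155 others, and at ranks 501 to 1000 it was 98.1% (89.7 to 100%) of 52 broad regions and 95.3% (92.9 to 97.1%) of 449 others. At ranks 1001 to 2000 it was 100% of 57 broad regions (93.7 to 100%) and 90.3% (88.3 to 92.1%) of 941 others. These intervals did not overlap, but the median width was 1170 bp for broad regions and 478 bp for others. A wider peak meets the overlap rule more easily, so this contrast is a description. Pooled cover was 80.7% in broad regions and 80.2% in others for ranks 1 to 200, 73.5% in broad regions and 74.2% in others for ranks 201 to 500, 70.1% in broad regions and 72.3% in others for ranks 501 to 1000, and 69.1% in broad regions and 67.4% in others for ranks 1001 to 2000. The share with 2 or more midline peaks differed more, between sets of unequal width. Broad regions had a median width of 1377 bp and others of 696 bp at ranks 1 to 200. Broad regions with 2 or more made up 48.9% (33.7 to 64.2%) at ranks 1 to 200 and 64.3% (50.4 to 76.6%) at ranks 201 to 500, against 7.74% (4.06 to 13.1%) of others at ranks 1 to 200 and 6.94% (4.09 to 10.9%) at ranks 201 to 500. Per kb of peak sequence, broad regions held fewer midline peaks than others. The values were 1.13 for broad regions and 1.53 for others at ranks 1 to 200. They were 1.29 for broad regions and 1.62 for others at ranks 201 to 500, and 1.43 and 1.91 at ranks 1001 to 2000. Best midline ranks were at medians of 209 for broad regions and 374 for others at embryo ranks 1 to 200, 677 for broad regions and 693 for others at 201 to 500, and 1323 for broad regions and 1990 for others at 1001 to 2000. In the lowest band, ranks 2001 to 10000, the ranks of the 2 sets are far apart within the band, so its values are not compared.

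A window of 500 bp around the centre of each peak gave every peak the same length. It met a midline peak in 258 of 265 broad regions (97.4%, 94.6 to 98.9%), against 5484 of 9735 other embryo peaks (56.3%, 55.3 to 57.3%) and a background of 57.4%. For the 7668 other embryo peaks narrower than 500 bp the window takes in sequence beyond the peak. Within ranks 1 to 200 the counts were 45 of 45 broad regions and 154 of 155 others, and within ranks 201 to 500 they were 56 of 56 broad regions and 239 of 245 others. Shares this close to their upper limit cannot show a difference. At ranks 1001 to 2000 the window met a midline peak in 98.2% (90.6 to 100%) of broad regions and 90.4% (88.4 to 92.2%) of others, and these intervals overlapped. Midline peaks covered 72.7% of the window in broad regions and 63.1% in others. The others in this band had a median width of 478 bp, so in many of them the window took in the edges and sequence beyond. In broad regions it lay wholly inside. Whether this accounts for the difference in cover was not tested.

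Only 5 broad regions held no midline peak. The highest-ranked was chr3R:16113724-16114770, 1047 bp wide at embryo rank 900. Its nearest midline peak lay 1952 bp away. The numbers in the midline peak names on either side of it were consecutive, so if peaks were numbered before the list was shortened, no weaker midline call was left out there. The same held for chr3R:9807249-9808603, 1355 bp wide at rank 3053, whose nearest midline peak was 376 bp away. That midline peak belonged to the next broad region, which began 241 bp further on at chr3R:9808845-9809940, ranked 249 and held 2. The other 3 were chr3L:12642132-12643158 (rank 4084, nearest midline peak at 1318 bp), chr3L:18764262-18765344 (rank 3370, 20555 bp) and chr2R:1285899-1286898 (rank 5590, 43800 bp). Between their flanking midline peaks 1, 7 and 3 peak numbers were missing, so weaker midline calls may have stood there. Of the 5, 4 ranked beyond 3000 in the embryo list.

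The regions were spread over all 5 arms in the lists, though not evenly. Of the 265, 78 were on 3R (29.4%, 24.0 to 35.3%), 63 on 2R (23.8%, 18.8 to 29.4%), 48 on 2L (18.1%, 13.7 to 23.3%), 43 on 3L (16.2%, 12.0 to 21.2%) and 33 on X (12.5%, 8.73 to 17.0%). All embryo peaks were at 23.9% on 3R, 19.8% on 2R, 17.2% on 2L, 20.1% on 3L and 19.0% on X. Read per arm, 3.26% (2.59 to 4.05%) of the embryo peaks on 3R were broad and 1.74% (1.20 to 2.43%) of those on X, against 2.65% over all arms. The X interval lay below the overall share and the 3R interval included it. At a threshold of 900 bp or more, 12.8% (9.74 to 16.5%) of regions were on X. At 1200 bp or more the share was 16.4% (10.3 to 24.2%). That wider interval includes both the 12.5% of the 265 regions and the 19.0% of all embryo peaks, so it cannot decide between them. Regions occur in groups, so these intervals are too narrow. The shares with 2 or more midline peaks ran from 51.2% on 3L to 60.6% on X, with overlapping intervals. Median cover was 80.5% on 2L and between 68.8% and 73.2% on the other arms. The X had the worst midline ranks, with a median best rank of 1821 over its regions, against 739.5 on 3R, 770 on 2L, 1015 on 2R and 1135 on 3L, although its median embryo rank of 721 was within the range of the other arms (553 to 966). The X also held 15.7% of the whole midline list, against 19.0% of the embryo list. Every other arm held a larger share of the midline list than of the embryo list. The difference in ranks and its relation to these shares were not tested.

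Many broad regions stood near each other. Of 260 gaps between successive regions on the same arm, 59 (22.7%, 17.7 to 28.3%) were at most 25 kb and 14 at most 1 kb, whereas the median gap was 223 kb. Joined at 25 kb, the regions formed 206 sets, of which 179 were single regions, 14 were pairs, 7 had 3 members and 6 had 4 or more, so that 86 regions (32.5%, 26.9 to 38.5%) were in a group. Another broad region had its midpoint within 25 kb of 85 of the 265 regions (32.1%, 26.5 to 38.1%), against a background of 16.2% over all embryo peaks. Other embryo peaks were also denser around them, with a median of 8 within 25 kb of a broad region, against 6 around other embryo peaks. For midline peaks outside the peak itself the medians were 8 around broad regions and 6 around other embryo peaks. Within the broad regions, the median number of other embryo peaks within 25 kb was 12 for the 86 regions in a group and 7 for the 179 alone. Members of the same group count among these neighbours, so part of that difference is built in.

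In 23 cases 2 broad regions followed each other in the embryo list with no other peak between them. The peak numbers were consecutive in 18 of these cases, and in the rest a weaker embryo call may have stood between. The closest pair was chr2R:8844686-8846892 and chr2R:8846930-8848022, 37 bp apart. The next were chr2L:5978267-5979410 and chr2L:5979477-5981152 at 66 bp, and chr3R:12060711-12061803 and chr3R:12061919-12063708 at 115 bp. These 3 gaps are the shortest of 260 and are below the median gap of 148 bp between midline peaks of the same region. The next 2 pairs were 241 and 247 bp apart, above that median.

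Regions in groups were wider and better ranked than regions alone. The 86 in groups had a median width of 1279 bp, a median embryo rank of 422.5 and a median best midline rank of 491, against 1149 bp, 966 and 1278 for the 179 alone. Shares with 2 or more midline peaks were 66.3% (55.3 to 76.1%) in groups and 52.5% (44.9 to 60.0%) alone, with intervals that overlap, and median cover was 75.1% in groups and 71.2% alone. No test was made of these differences.

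The largest group had 11 broad regions within 44.9 kb of 3R, from 21821726 to 21866591. They were 1009 to 2077 bp wide, held 16.7 kb together and ranked 40 to 721 in the embryo list. Each held at least 1 midline peak, and their best midline ranks were between 29 and 693. The best was at chr3R:21831578-21832853, where a midline peak of 897 bp ranked 29, and the next at chr3R:21835044-21837120, where one of 1276 bp ranked 42. The 3 midline peaks of the first region, chr3R:21821726-21823536, ranked 1432, 230 and 788. The least covered were chr3R:21835044-21837120 at 62.0% and chr3R:21846305-21847780 at 65.1%, and the most covered was chr3R:21865116-21866591 at 96.2%. The span held 21 embryo peaks and 30 midline peaks in all, and 20 of the midline peaks were in the broad regions. The 10 others lay between them.

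The second group had 7 broad regions within 46.0 kb of 3R, from 12060711 to 12106757. Their embryo ranks were 86 to 537 and their best midline ranks 2 to 486. Among them were 2 of the highest midline peaks of all, rank 2 in chr3R:12060711-12061803 and rank 7 in chr3R:12067838-12068869, where the embryo ranks were 183 and 125. Another, chr3R:12075124-12076606, was covered over 92.0% by a midline peak of 1365 bp that ranked 33. By contrast, chr3R:12079439-12081463, 2025 bp wide, held a midline peak of 655 bp at rank 8025 beside one of 930 bp at rank 209. In this span 19 embryo peaks stood beside 26 midline peaks, 12 of them in broad regions.

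**Figure D5:**
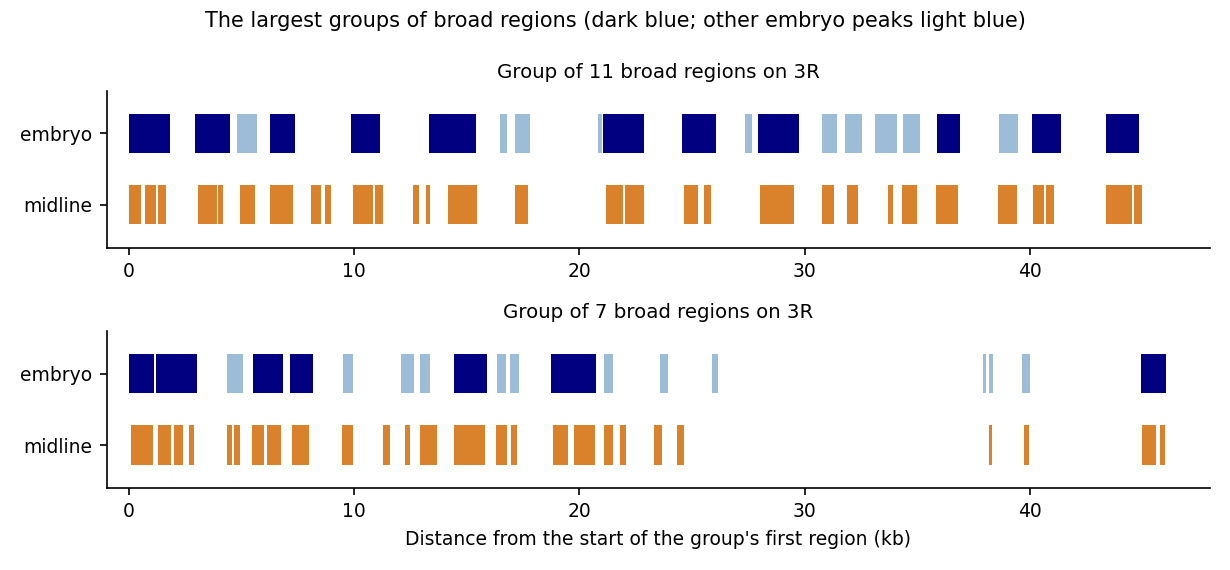
Embryo peaks (upper row of each panel, broad regions dark blue, others light blue) and midline peaks (lower row, orange) in the groups of 11 and 7 broad regions on 3R, drawn to scale in kb from the start of the first region (horizontal axis). Each of the 18 broad regions stands over at least 1 midline peak, and the midline row continues between them with 10 and 14 further peaks.

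Smaller groups differed in how strong they were in the midline list. The 6 regions on 2R from 8844686 to 8885094 ranked 114 to 602 in the embryo list, with best midline ranks of 24 to 1077. The 5 on 2L from 2162900 to 2203673 ranked 47 to 3294, with best midline ranks of 45 to 1804, and held 13 midline peaks. The 4 on 3L from 14960692 to 14968799 were packed into 8.11 kb with no other embryo peak among them. They ranked 731 to 2640 in the embryo list, held 2 midline peaks each, and had best midline ranks between 58 and 4487.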

How the data were processed

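FAIRE-seq peaks of 2 groups with 2 libraries each were used. Per the submitters' processing notes, CASAVA 1.8.2, Bowtie2, SAMtools, bedtools and MACS2 were used on dm3. Roles, settings and the use of the input: not given in the sources used here. The peak and file names state that the authors pooled replicates for peak calling and deposited the top 10000 peaks per group, each with a score of unstated scale. The deposited score was used only to rank peaks within a list. There were 0 unused columns of per-sample values.

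Regions of at least 1000 bp were matched with midline peaks at an overlap of 1 bp or more. Position is that of a midline peak's midpoint, from 0 at the lower to 1 at the higher coordinate. Regions at most 25 kb apart were joined. Named regions are the 5 widest, the 5 with most midline peaks, the 5 best by embryo rank, the 5 most and 5 least covered, those with no midline peak and the 2 largest groups. Other regions in the text (the closest pairs, the smaller groups) were named after their values were seen. The members and lists were chosen with earlier results of these data known. No test was run, since the lists hold no replicate values and regions are not replicates. The planned gene assignment was not run, because no dm3 annotation was used. Alternatives changed the overlap rule, the width threshold, the list length, the midline peak width and the joining distance. The procedures were tested on simulated data. The software was Python 3.11.15 with numpy 2.4.6, scipy 1.17.1, pandas 2.3.3 and matplotlib 3.10.9.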

Additional observations from a re-analysis of the deposited data

How the results depend on the processing

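A value was taken as unmoved where an alternative stayed within the 95% interval of the value reported (for medians, the interval from binomial order statistics). The shares by arm stayed within it under every alternative run, as did the share of regions with a midline peak (97.4 to 99.2%) except with the 5000 highest-scoring midline peaks, where it was 94.0%. With those, the share holding 2 or more was 37.0% and the median cover 68.2%. The share holding 2 or more was 50.4% for widths of 900 bp or more and 73.8% for 1200 bp or more. At 1200 bp or more the median embryo rank was 523 and the median best midline rank 683. With midline peaks set to 500 bp, the median cover was 56.0%, a setting that shortens wider peaks and lengthens narrower ones. The share of midpoints in the central 50% was 56.4% over all midline peaks, 68.5% for the best of each region and 89.0% in regions with 1. The share of regions joined to another was 23.4% at 10 kb and 49.8% at 100 kb, which follows from the distance. Taking the median in place of the best rank of the midline peaks held gave 1859. Gene assignment was not run. No paired analysis was possible because each list is a call on pooled replicates, which also prevents leaving 1 out. With unknown depth, a broad region without a midline peak may be closed or undetected in those cells.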

Other observations

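The broad midline peaks outside the broad embryo regions were few. The one that touched no embryo peak was at chr2L:1473184-1474197, 1014 bp wide with midline rank 2228. Among the 6 that touched only narrower embryo peaks was the widest midline peak of all, chr2R:14225092-14226850, 1759 bp wide with midline rank 728, which overlapped 2 embryo peaks of at most 512 bp. Another, chr3L:17004002-17005041 at midline rank 2638, overlapped 3 embryo peaks of at most 310 bp. The best ranked was chr2L:714632-715824 at midline rank 233, over an embryo peak of 767 bp.

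A broad embryo region stood at the very end of the 3R coordinates, at chr3R:29-1177. It was 1149 bp wide with embryo rank 2043, and held 2 midline peaks that covered 75.1% of it, the better at midline rank 1859.

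The regions and peaks named here were chosen after their values were seen.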
